A study of Mus musculus with 12 samples.

Results

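The comparison set the 4 lateral habenula libraries of stress-resilient mice against the 8 libraries of all other mice, 4 non-defeated and 4 stress-susceptible. Genes outside the range were taken as those in which all 4 resilient values lay above, or all 4 below, all of the other 8 values. Of 17111 genes tested, 107 met this rule (0.625%), 51 above (0.298%) and 56 below (0.327%). Random assignment of the libraries to sets of 4 and 8 would let a share of 0.00404 of genes without ties meet it. The excess over that share was not tested, and many of the 107 can be members by chance. Of the 56 below, 15 were mitochondrial genes and 4 were nuclear copies that match them. Because the rule uses the levels themselves, the levels of these 107 genes are a description, and tests come from a fit across all 17111 genes. All mice were C57BL/6, aged 9 weeks. The susceptible and resilient mice had both been through social defeat and were told apart by their behaviour, and non-defeated mice were the controls. All groups shared the tissue, a punch taken from a 500 µm slice, and an input of 100 pg of RNA. A second split runs across the groups. Each title holds the letter H or N, whose meaning the labels do not give. All 4 non-defeated libraries and susceptible replicates 1 and 2 have the letter H, and susceptible replicates 3 and 4 and all 4 resilient libraries have the letter N. Every gene was therefore also checked in the 2 susceptible libraries of letter N.

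The lateral habenula belongs to the epithalamus, and its glutamatergic neurons relay aversive and disappointing outcomes to the midbrain, where they act on dopamine and serotonin cells. Its neurons fire more, and more often in bursts, in several rodent models of depression, and such firing draws on ATP made by oxidative phosphorylation. Mitochondria keep a small circular genome that encodes core subunits of the respiratory chain and ATP synthase and the ribosomal RNAs to translate them. All other mitochondrial proteins, and all cytosolic ribosomal proteins, come from nuclear genes. Mice that pass through social defeat without social avoidance are called resilient, and in other brain regions resilience has been described as an active state with gene changes of its own.

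Depth was 33.3 M to 45.4 M reads in the resilient libraries and 35.1 M to 47.7 M in the others (M, 1000000 reads). Levels are in CPM, the reads of a gene per 1000000 counted over the table, and fold changes are differences of log2(CPM + 1), which understate the change of scarce genes. The first principal component held 20.1% of the variance, and the resilient libraries stood at both of its ends, replicate 4 at -63.8 and replicate 1 at 55.0. Resilient replicate 4 also had the fewest genes without a read, 330 against 852 to 1577 in the other resilient libraries. The interaction ratio of the social avoidance test, in the authors' deposited table, was 1.18, 1.08, 1.2 and 2.24 for the resilient mice, 0.13 to 0.69 for susceptible and 1.12 to 1.84 for non-defeated mice. Markers of the lateral habenula were present in both sets, with Gpr151 at 491 ± 214 CPM in resilient libraries (SD, n = 4) and 387 ± 96.1 CPM in the others (SD, n = 8). Their summed level was 1930 to 2594 CPM and 2075 to 2568 CPM.

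The fit across all genes, limma-trend with Benjamini-Hochberg adjustment, called 11 genes (0.0643% of those tested, 0.00584% higher and 0.0584% lower), and all 11 also met the range rule. Of these calls, 10 were among the 15 mitochondrially encoded genes of the table, and all 10 fell. The remaining call was E2f8, an atypical E2F factor that represses cell cycle genes, which rose. E2f8 had no read outside the resilient group and entered the test only through the resilient libraries, so that its call is a description. With a filter of a mean of at least 1 CPM it is not tested, and no higher gene was called. An unadjusted p under 0.05 was reached by 996 genes (5.82%), of which 565 were higher (3.30%) and 431 lower (2.52%). The median log2 fold change of all genes tested was 0.02, and 46.8% were negative. The count of calls rests on single libraries. It was 1 without resilient replicate 1 or 2, 6 without replicate 3 and 24 without replicate 4. Leaving out susceptible replicate 3 or 4, or non-defeated replicate 1, 2 or 4, gave 2 each, and the count was 17 without non-defeated replicate 3. With the title letter as a term no gene passed (648 at an unadjusted p under 0.05).

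Reads from the 15 mitochondrial genes made up 4.04%, 4.55%, 5.13% and 4.46% of the 4 resilient libraries. Non-defeated libraries held 9.35%, 10.2%, 6.73% and 10.6%, and susceptible libraries 8.37%, 8.01%, 10.2% and 12.6%. The highest resilient value, 5.13%, lay below the lowest of the others, 6.73%, and the 2 highest susceptible values belonged to the letter N. The mean share was 4.55 ± 0.449% in resilient (SD, n = 4) and 9.52 ± 1.82% in the other libraries (SD, n = 8), a difference of -4.97 percentage points and a ratio of 0.478. An exact two-sided permutation test gave p = 0.00404, the smallest that 4 against 8 libraries allow. The share was chosen for testing after an earlier comparison of these resilient and non-defeated libraries had called mitochondrial transcripts. The permutation p-values here are therefore a description. Within letter N, the resilient libraries differed from the 2 susceptible ones by -6.85 points, with an exact permutation p of 0.133, again the smallest possible, from 15 arrangements. Against the 6 libraries of letter H the difference was -4.35 points with an exact permutation p of 0.00952. Lower mitochondrial RNA per cell and a different mix of cells cannot be told apart in bulk tissue.

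**Figure D1:**
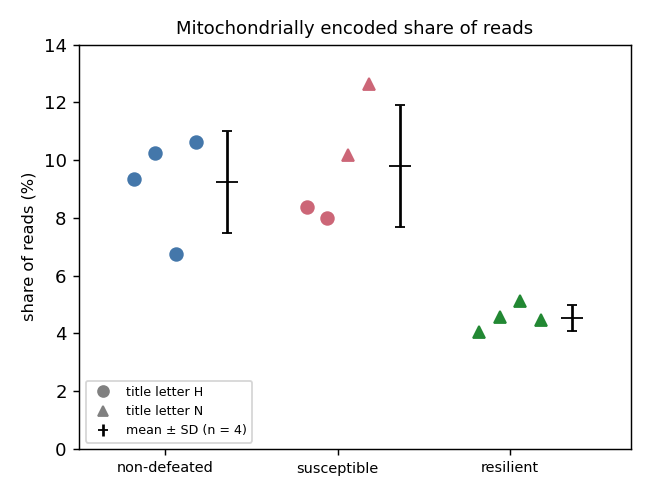
Share of each library's reads (percent) that fell on the 15 mitochondrially encoded genes, by group. Circles have title letter H and triangles N, and bars are the mean ± SD of 4 libraries. The resilient libraries lie between 4.04% and 5.13%, below all 8 others, and the letter N susceptible triangles are at 10.2% and 12.6%.

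All 15 mitochondrial genes lay below the range of the other 8 libraries. The ribosomal RNAs came first by p. The small ribosomal RNA, mt-Rnr1 (chrM:70-1024), stood at 912, 1236, 1338 and 1182 CPM in resilient libraries. In the others it was 2542, 2885, 2183 and 3385 CPM (non-defeated) and 2259, 2542, 2551 and 2862 CPM (susceptible). The groups were far apart, and non-defeated and susceptible libraries overlapped. Its log2 fold change was -1.22 ± 0.14 (SE; limma adjusted p = 0.00575), and of the 11 calls it was the only 1 that passed in every fit with 1 library left out. For the large ribosomal RNA, mt-Rnr2, the value was -1.14 ± 0.14 (limma adjusted p = 0.0105), and it passed in 10 of the 12 such fits. Against each group alone, mt-Rnr1 was at -1.25 for non-defeated and at -1.19 for susceptible libraries (limma adjusted p = 0.0237 and 0.0421), comparisons that share the resilient libraries, and mt-Rnr2 passed in both. Of the 13 protein-coding genes none passed against non-defeated libraries, where mt-Co3 had the lowest limma adjusted p of 0.199. Against susceptible libraries 6 of them passed, mt-Nd2, mt-Nd4, mt-Nd5, mt-Nd6, mt-Atp6 and mt-Atp8 (limma adjusted p = 0.0469 to 0.0486).

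Of the 13 protein-coding genes, 8 passed the test and all 13 were negative, with a median log2 fold change of -1.11. Complex I transcripts fell in several subunits: mt-Nd4 (-1.06), mt-Nd2 (-1.06), mt-Nd5 (-1.12) and mt-Nd6 (-1.11) all passed, with limma adjusted p of 0.0265 to 0.0288. Of the protein genes, mt-Nd6 is the only 1 encoded on the other strand of the mitochondrial genome. mt-Nd1, mt-Nd3 and mt-Nd4l missed the threshold at -0.96, -1.83 and -1.22 (limma adjusted p = 0.0503, 0.0741 and 0.0981). In ATP synthase, mt-Atp6 and mt-Atp8 fell by 1.12 and 1.07 on the log2 scale (limma adjusted p = 0.0265 and 0.0334). Among the subunits of cytochrome oxidase, mt-Co3 (-1.34) and mt-Co2 (-1.54) passed and mt-Co1 did not (-0.81, limma adjusted p = 0.107). Cytochrome b, mt-Cytb, was at -0.96 (limma adjusted p = 0.0738). Several of these genes overlap by a few bases, and the use of strand is not given, so reads at the overlaps cannot be assigned with certainty.

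The size of the difference varied along the genome. mt-Co1 differed least, with resilient libraries at 8133, 7401, 8702 and 8931 CPM and the others from 10100 to 18466 CPM, so that each resilient library held 0.513 to 0.619 of the others' mean. mt-Nd3 differed most on average and was the most uneven among the resilient libraries. It stood at 36.9, 82.2, 85.7 and 180 CPM in resilient libraries and from 194 to 479 CPM in the others, or 0.121 to 0.589 of their mean. mt-Co2 ranged from 0.186 to 0.503 of the others' mean and mt-Co3 from 0.254 to 0.537. For mt-Co2, mt-Co3, mt-Nd3 and mt-Nd4l resilient replicate 1 was the lowest library and replicate 4 the highest of the 4. Replicate 4 was instead the lowest for mt-Rnr2, mt-Nd1, mt-Nd2, mt-Atp6, mt-Nd4, mt-Nd5 and mt-Cytb.

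**Figure D2:**
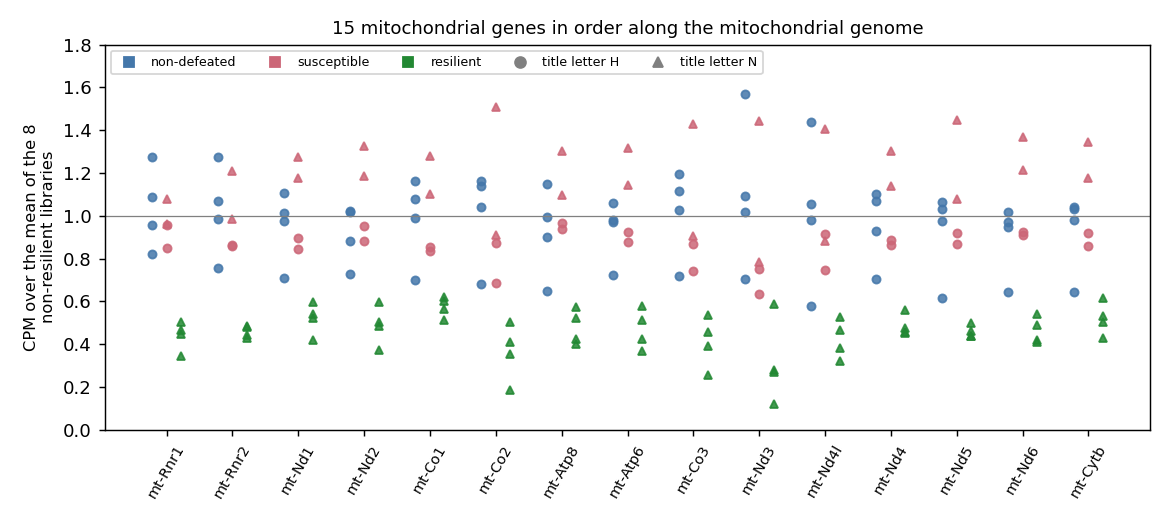
Level of the 15 mitochondrial genes in every library, as CPM divided by the mean of the 8 non-resilient libraries (ratio, 1 marked by the line), in their order along the mitochondrial genome. Green triangles are resilient libraries, and in every gene they lie below all others, from 0.121 (mt-Nd3) to 0.619 (mt-Co1) of the mean.

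The letter N susceptible libraries did not share the lower mitochondrial levels. In 7 of the 15 genes both susceptible libraries of letter N lay beyond the letter H range on the side away from the resilient ones, in 4 genes 1 of them did, and in the other 4 both lay within it. With the title letter as a term the log2 fold changes of the 15 genes ran from -1.22 to -2.33, and the smallest limma adjusted p was 0.0633.

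Nuclear copies of mitochondrial sequence were also among the 56 lower genes. Of 9 pseudogenes among the 107 genes, 4 match a mitochondrial gene over their length: Gm13340 matches mt-Co1 (97.6% of 1545 bases), Gm13341 matches mt-Co2 (95.9% of 684), Gm13339 matches mt-Nd2 (96.7% of 510) and Gm28437 matches mt-Co3 in full (100% of 783). The first 3 lie side by side at chr2:22587291-22590533, and the last is on chromosome 1. Gm13340 was at 369 to 441 CPM in resilient libraries and 531 to 877 CPM in the others, or -0.83 ± 0.14 on the log2 scale (SE; limma adjusted p = 0.0501). Gm13341 was at -1.27 and Gm28437 at -1.09. Reads of these copies and of the mitochondrial genes cannot be told apart with certainty, so they are not counted as separate observations. The stretch below, bases 14 to 103 of both transcripts in GENCODE M21 (GRCm38), shows how close they are, with the 3 differing bases in capitals.
Gm13340: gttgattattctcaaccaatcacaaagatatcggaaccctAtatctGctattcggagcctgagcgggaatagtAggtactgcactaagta
mt-Co1: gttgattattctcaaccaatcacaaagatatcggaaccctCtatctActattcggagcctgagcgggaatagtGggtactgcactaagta

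Nuclear genes of the respiratory chain did not share the difference. Of 30 measured subunits and assembly genes none passed (2 at an unadjusted p under 0.05), 15 were positive and 15 negative, and the median log2 fold change was 0.01, beside 0.02 for all genes. Their summed level was 11747 to 13099 CPM in resilient and 10788 to 13437 CPM in other libraries. Ndufv1, a complex I subunit that binds NADH, was the only 1 of them outside the range, and it was higher, at 368, 342, 343 and 329 CPM against 243 to 313 CPM. Uqcrc1, a core subunit of complex III, was at 0.36 ± 0.13 (SE), and Cox8a, a small subunit of cytochrome oxidase, at -0.33 ± 0.15. Of 20 measured genes for mitochondrial transcription and translation none passed (1 at an unadjusted p under 0.05) and the median was 0.06. Ppargc1a, the coactivator that drives mitochondrial biogenesis, was at 94.6 ± 19.3 CPM (SD, n = 4) and 64.9 ± 18.8 CPM (SD, n = 8), a log2 fold change of 0.53 ± 0.23 (limma adjusted p = 0.793).

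Single nuclear genes for mitochondrial proteins among the 107, named after their values were seen and none past the test, stand for no list: the nuclear lists above had only Ndufv1 outside the range. Mfn2, which fuses outer mitochondrial membranes, was at 315, 356, 340 and 350 CPM in resilient libraries and 213 to 291 CPM in the others (0.37 ± 0.11 on the log2 scale, SE). The letter N susceptible libraries held its 2 lowest values, 213 and 226 CPM. Its paralog Mfn1 was at 0.04 ± 0.17. Pmpca, a subunit of the protease that removes import signals, was at 128 to 137 CPM against 67.7 to 124 CPM. Glud1, glutamate dehydrogenase, was at 264 to 287 CPM against 55.6 to 246 CPM, and here the letter N susceptible libraries were the 2 highest of the other 8. Cox19, a copper handling factor for cytochrome oxidase assembly, went the other way, at 28.5 to 32.1 CPM against 35.8 to 47.8 CPM.

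The 3 members with the widest gap above the other libraries were genes nearly without reads outside the resilient group. E2f8 (chr7:48866429-48881596) had 83, 53, 117 and 42 reads in the resilient libraries, or 1.83, 1.30, 2.71 and 1.26 CPM, and 0 reads in all 8 others. Over the pooled libraries that is at least 200-fold higher than a floor of 3 reads over the other 8, a description of the reads by which the gene was chosen. The log2 fold change was 1.43 ± 0.21 (SE; limma adjusted p = 0.0265), in a test that it entered only through the resilient libraries. It passed in 4 of 12 fits with 1 library left out, with limma adjusted p from 0.0229 to 0.128. The call was lost when resilient replicate 1, 2 or 3, susceptible replicate 3 or 4, or non-defeated replicate 1, 2 or 4 was left out. Of the 19 measured genes of the E2F and cell cycle list it was the only call. E2f1, an activating member of the family, was at 0.46 ± 0.34 (limma adjusted p = 0.999).

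Dlx2 and Sp9, transcription factors of GABAergic forebrain neurons, lie 1.73 Mb apart on chromosome 2 and were also scarce outside the resilient group. Both passed the filter on low values only through the resilient libraries and were chosen by these same reads, so their values are given here with no test. Dlx2 had 78, 35, 124 and 22 reads in resilient libraries and 2 reads in the others, all in non-defeated replicate 4. The pooled ratio was 263, a description of the reads by which the gene was chosen. No interval is given, since reads were amplified without molecular identifiers and pooled reads are not replicates. Sp9 had 32, 42, 46 and 12 reads in resilient libraries and 10 reads over the others, a pooled ratio of 26.9. Resilient replicate 4 had the fewest reads of both genes. Related genes, chosen after their values were seen, overlapped between the sets: Dlx1 at 1.11 to 8.04 CPM against 0 to 4.84 CPM, Gad1 at 14 to 24.6 CPM against 0 to 46.1 CPM and Gad2 at 16.1 to 71.7 CPM against 18.5 to 85.7 CPM. Dlx5 and Dlx6os1 had log2 ratios of -0.12 and -1.40 for resilient over non-defeated in the authors' deposited table. For susceptible over resilient these were -3.27 and -0.49, and neither gene had an FDR under 0.05 there.

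**Figure D3:**
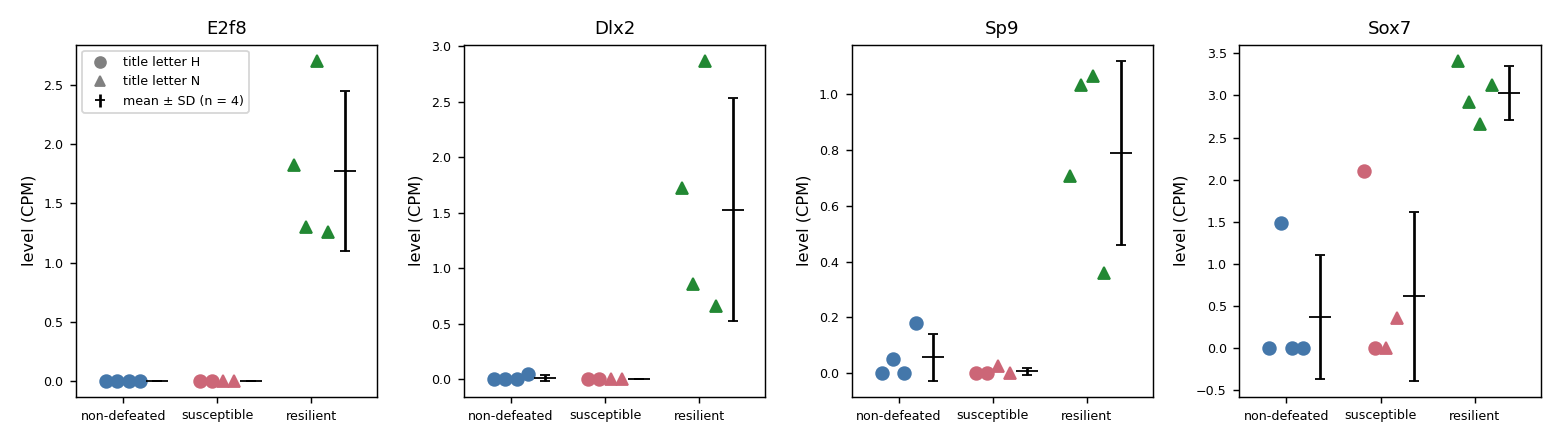
Levels (CPM) of E2f8, Dlx2, Sp9 and Sox7 in every library, by group, each panel on its own linear scale. Circles have title letter H and triangles N, and bars are the mean ± SD of 4 libraries. E2f8 is at 0 in all 8 non-resilient libraries and at 1.26 to 2.71 CPM in resilient ones, while Sox7 reaches 2.10 CPM in 1 susceptible library.

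The promoters of E2f8, Dlx2 and Sp9 are shown because these are the protein-coding members with no more than 10 reads outside the resilient group, a choice made after their values were seen. They are from the RefSeq table for GRCm38.p6, 250 bases before and 50 after each start, read 5′ to 3′ on the gene's strand, at chr7:48881547-48881846 (minus), chr2:71546705-71547004 (minus) and chr2:73271676-73271975 (plus). Capitals mark the letters of a GC box (GGGCGG) and of a CCAAT box (CCAATC), searched on both strands. The CCAAT box was chosen after the sequences were seen.
E2f8: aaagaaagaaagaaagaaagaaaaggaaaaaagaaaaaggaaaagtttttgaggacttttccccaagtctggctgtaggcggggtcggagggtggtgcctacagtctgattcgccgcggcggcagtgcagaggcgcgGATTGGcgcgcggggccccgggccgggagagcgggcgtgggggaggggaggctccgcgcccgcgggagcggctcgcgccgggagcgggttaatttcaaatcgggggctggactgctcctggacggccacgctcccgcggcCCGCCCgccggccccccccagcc
Dlx2: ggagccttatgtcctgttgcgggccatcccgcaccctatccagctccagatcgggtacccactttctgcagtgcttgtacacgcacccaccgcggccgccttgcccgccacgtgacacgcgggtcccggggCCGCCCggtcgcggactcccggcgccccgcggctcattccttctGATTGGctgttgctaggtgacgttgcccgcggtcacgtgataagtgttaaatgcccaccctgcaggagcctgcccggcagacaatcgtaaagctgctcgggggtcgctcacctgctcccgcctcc
Sp9: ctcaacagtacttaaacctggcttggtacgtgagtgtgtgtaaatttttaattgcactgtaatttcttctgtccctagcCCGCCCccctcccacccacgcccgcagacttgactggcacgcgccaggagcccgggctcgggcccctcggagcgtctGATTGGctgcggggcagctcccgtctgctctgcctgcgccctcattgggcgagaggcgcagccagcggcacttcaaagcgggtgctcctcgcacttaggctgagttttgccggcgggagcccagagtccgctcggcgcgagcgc

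Each of these promoters holds 1 GC box and 1 CCAAT box. Over 27025 promoters of the same table the shares are 35.9% for the GC box, 16.6% for the CCAAT box and 7.29% for both together. The E2F letters TTTGGCGC, TTTCGCGC and TTTCCCGC (1.91% of promoters) and the homeodomain letters TAATTA (5.31%) had no match in these 3 windows. Such matches describe the letters only.

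Other scarce genes followed. Gm17308, a long noncoding RNA on chromosome 3, had 29, 36, 65 and 34 reads in resilient libraries and 4 reads over the others. Sox7, a factor of the vascular endothelium, had 155, 119, 115 and 104 reads in resilient libraries, and among the others it was at 60, 91 and 14 reads in 3 libraries and at 0 in 5. Gm17308, Sox7 and Flicr, too, passed the filter only with the resilient libraries counted. The 7 endothelial and mural markers had a median log2 fold change of 0.71 with no call. That median rests on resilient replicate 4, and without it the median was 0.13. The summed level of these markers was 30.04 to 37.4 CPM in resilient replicates 1 to 3, within the 23.5 to 62.9 CPM of the other libraries, and 281 CPM in replicate 4. Their part in the Sox7 difference was not tested. Gm16861, Flicr and Gm15853 overlap other genes on the opposite strand and cannot be assigned with certainty.

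Other higher genes with more reads had varied roles, and none passed the test. Of 18 listed genes of synaptic vesicles and release none lay outside the range, and 9 were positive and 9 negative. Fbxw11, the substrate-binding subunit of a ubiquitin ligase that degrades beta-catenin, was at 201, 189, 183 and 182 CPM against 123 to 153 CPM (0.43 ± 0.11, SE). Sec23b, a coat protein of vesicles leaving the endoplasmic reticulum, was at 76.9, 85.7, 94.7 and 92.7 CPM against 37.9 to 67.8 CPM (0.73 ± 0.17). Exoc7, an exocyst subunit, was at 87.5 to 104 CPM against 57.9 to 83.4 CPM, and Atp6v1b2, a subunit of the proton pump of vesicles, at 714 to 990 CPM against 563 to 697 CPM. The regulatory subunits of protein kinase A, Prkar1a and Prkar1b, were at 0.23 ± 0.09 and 0.16 ± 0.10, both with the letter N susceptible libraries lowest. Bcar1, an adhesion scaffold (0.45), Tada2a, part of a histone acetylase complex (0.62), and the zinc finger gene Zfp354b (1.19) completed the 10 widest gaps. At the edge of the rule, Clba1 was just inside (lowest resilient 16.34 CPM, highest other 16.31 CPM) and Zfp607b just outside (18.27 and 18.30 CPM).

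The split of 51 higher and 56 lower genes depends on the scaling, because a smaller mitochondrial share raises the CPM of all other genes by construction. It was 41 and 78 with TMM scaling, 31 and 81 with median-of-ratios scaling, and 17 and 92 with CPM of the reads outside the mitochondrial genes, where the 15 mitochondrial genes are left out. Under all 4 scalings 14 of the 51 higher genes stayed outside the range, as did 35 of the 41 lower genes outside the mitochondrial genome. The 15 mitochondrial genes stayed outside it under each scaling that includes them. Among the 14 were E2f8, Dlx2, Gm17308, Fbxw11, Sox7, Zfp354b, Sp9, Sec23b, Tada2a, Bcar1, Gm16861, Mfn2 and Flicr. Of these, E2f8, Dlx2, Gm17308, Sox7, Sp9 and Flicr passed the filter only through the resilient libraries. No scaling moves E2f8 into the range, since it was at 0 in all other libraries. Leaving out mitochondrial reads lowers every resilient library relative to every other, so all 41 lower genes had to stay outside under that scaling. These counts are therefore a description. The other genes named here as higher, Ndufv1, Pmpca and Glud1 included, were not outside the range under every scaling. The count of 107 was 195 without susceptible replicate 3, 261 without resilient replicate 1, 188 and 189 without replicates 2 and 3, and 566 without replicate 4.

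Among the 41 lower genes outside the mitochondrial genome, ribosomal protein genes took 9.76%, beside 0.544% of all genes tested. These were Rpl3, Rpl13, Rpl21 and Rps19. Rps19 was at 126, 132, 124 and 108 CPM in resilient libraries and 139 to 219 CPM in the others (-0.45 ± 0.14, SE; limma adjusted p = 0.668). Rpl13 was at 103, 109, 108 and 107 CPM against 113 to 205 CPM, and Rpl3 at 343, 334, 345 and 364 CPM against 365 to 604 CPM. Rps25 was just outside the rule, with its highest resilient library at 87.18 CPM and its lowest other at 87.17 CPM. The margins were narrow throughout. Of 35 listed cytosolic ribosomal protein genes none passed, 18 had an unadjusted p under 0.05, and all 35 were negative, with a median of -0.34 beside 0.02 for all genes. Their summed level was 3439, 3571, 3576 and 3743 CPM in resilient libraries and 3631 to 6021 CPM in the others, so the sums overlapped. Non-defeated replicate 4 was the highest, and without it the median was -0.26. Eef1g, a subunit of a translation elongation factor, lay below the range too, as did Gas5, a noncoding host of small nucleolar RNAs.

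**Figure D4:**
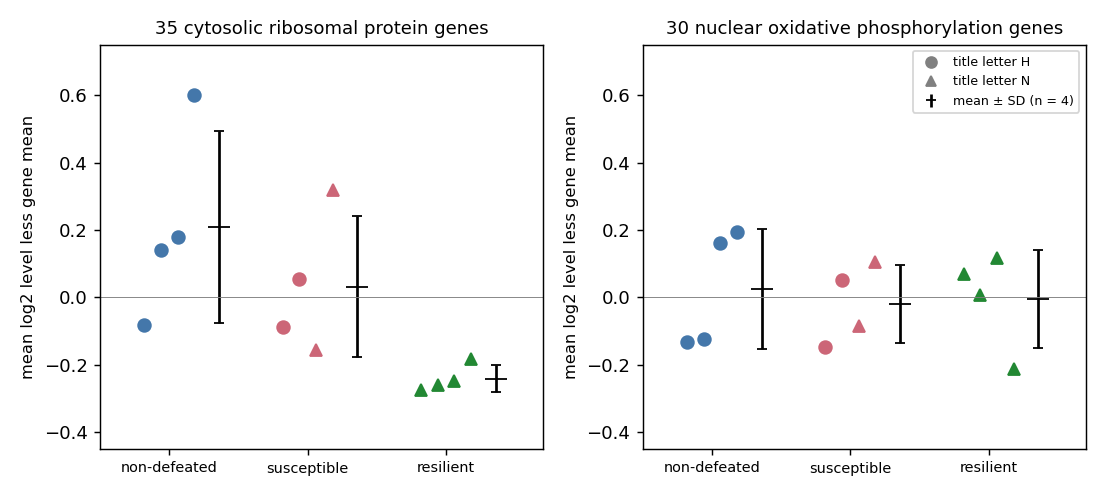
Mean over the list of each gene's log2 level less its mean over 12 libraries, for 35 cytosolic ribosomal protein genes (left) and 30 nuclear oxidative phosphorylation genes (right), by library and group. Bars are the mean ± SD of 4 libraries. The resilient libraries lie between -0.28 and -0.18 on the left, with susceptible replicate 3 next at -0.16, and overlap all groups on the right.

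The other lower genes had varied roles. Mt1, a metallothionein that binds zinc and is induced by glucocorticoids, was at 295, 407, 412 and 492 CPM in resilient libraries and 514 to 794 CPM in the others. The log2 fold change was -0.67 ± 0.13 (SE; limma adjusted p = 0.116), and its neighbour Mt2 was at -0.75 ± 0.20. Of the 17 glucocorticoid response genes none passed and the median was -0.13. Aph1c, a gamma-secretase subunit, had the widest gap of all lower genes outside the mitochondrial genome, at 2.64, 2.65, 1.25 and 3.45 CPM against 4.87 to 10.3 CPM (-1.43 ± 0.28; limma adjusted p = 0.121). Ergic1, a protein of the compartment between endoplasmic reticulum and Golgi, was among the 20 smallest p at -0.95 ± 0.17 (limma adjusted p = 0.0738), but resilient replicate 4, at 154 CPM, lay within the others' 143 to 220 CPM. Litaf, a late endosome protein, was at 58.5 to 71.8 CPM against 78.1 to 135 CPM, and Vma21, an assembly factor of the vesicular proton pump, at 90.7 to 111 CPM against 116 to 210 CPM. Ly86, a partner of a toll-like receptor homolog on myeloid cells, was at 4.89 to 7.96 CPM against 8.52 to 16.8 CPM, beside a median of -0.20 for 6 microglial markers. St3gal4 was just inside the rule, at 39.4 to 59.4 CPM against 59.6 to 80.9 CPM.

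The title letter could be checked within the susceptible group only. The range rule itself leaves out genes in which a letter N susceptible library matches the resilient ones, so the counts over the 107 genes are a description. Among all genes tested, both letter N susceptible libraries lay above all 6 letter H libraries in 3.55% and below them in 3.94%. All 6 letter N libraries lay above all 6 of letter H in 107 genes (0.625%) and below them in 14 (0.0818%). Of the 51 higher genes, 5 (9.80%) had both letter N susceptible libraries above all of letter H: Glud1, Ctnnd2, Ulk2, Prkcb and Fam168b. Of the 56 lower genes, Fam214b alone (1.79%) had both below. Ctnnd2, an adhesion protein of dendrites, was at 94.99, 97.0, 104 and 90.5 CPM in resilient libraries, 85.4 and 70.7 CPM in the letter N susceptible libraries and 34.4 to 67.8 CPM in letter H. With the letter as a term its log2 fold change was 0.45 instead of 0.71, that of Prkcb, a protein kinase C, 0.40 instead of 1.07, and that of Ulk2, an autophagy kinase, 0.12 instead of 1.04. All resilient libraries have the letter N, which only 2 susceptible libraries share. The letter and resilience therefore cannot be fully told apart in any of the 107 genes. This holds most for these 6 genes, where both letter N susceptible libraries also lay beyond letter H on the resilient side. In 35 of the 51 and 24 of the 56 genes both letter N susceptible libraries lay within the letter H range. In another 3 of the 51 and 11 of the 56 (19.6%), 1 of these libraries lay beyond all of letter H on the resilient side. On the side away from the resilient libraries, 1 lay beyond the letter H range in 4 of the 51 and 12 of the 56, and both did in 4 and 8.

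**Figure D5:**
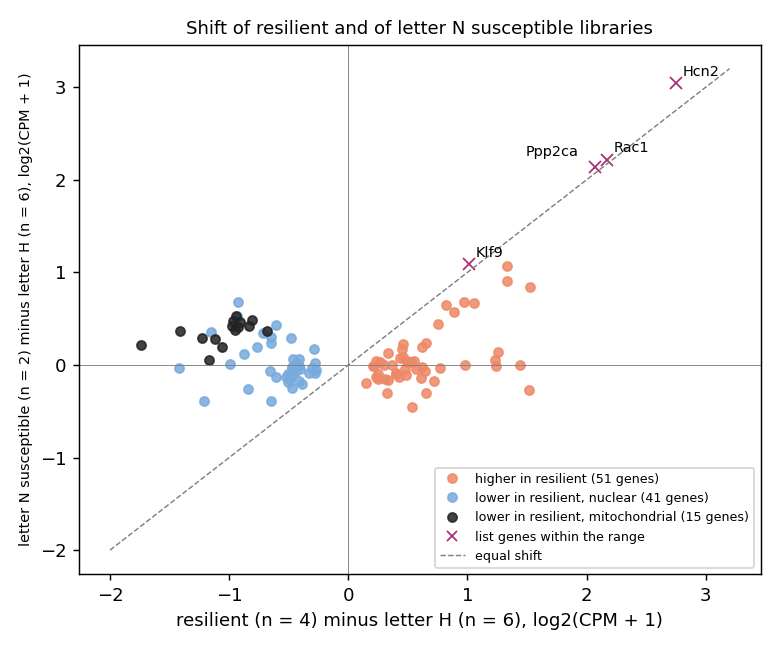
Each of the 107 genes by its mean log2(CPM + 1) difference of the 4 resilient libraries (x axis) and of the 2 letter N susceptible libraries (y axis) from the 6 letter H libraries. The rule places the resilient libraries of each member beyond the letter N susceptible ones, so the distance from the dashed line of equal shift is a description, and crosses are 4 list genes within the range.

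Some listed genes of excitability and resilience, none past the test, had higher mean levels in both letter N sets than in letter H, though not in every library. Hcn2, a pacemaker channel, was at 50.6, 58.2, 83.0 and 8.29 CPM in resilient libraries, 91.5 and 24.2 CPM in letter N susceptible ones and 3.10 to 12.9 CPM in letter H, so that resilient replicate 4 lay within the letter H range. Its log2 fold change against all others was 1.96 ± 0.81 (SE; limma adjusted p = 0.782), and -0.73 with the letter as a term. Ppp2ca, the catalytic subunit of a phosphatase that acts on habenular potassium channels and GABA-B receptors, was at 1.5 and -0.64. Rac1, a regulator of spine actin tied to stress responses in the nucleus accumbens, was at 1.58 and -0.57, and Klf9, a glucocorticoid target, at 0.71 and -0.18. Lrp6, a Wnt coreceptor, was at 1.07 ± 0.35, with 31.1 to 38.5 CPM in resilient libraries, 35.4 and 23.3 CPM in letter N susceptible ones and 5.41 to 19.1 CPM in letter H. None of the 25 excitability, 18 Wnt or 20 resilience genes measured passed, and their medians were 0.07, 0.05 and 0.03. Bdnf, a neurotrophin, was at -0.61 ± 0.23, and Gadd45b, a demethylation factor, at -0.88 ± 0.30.

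Markers of nearby tissue were checked because a punch can hold more than its target. Of 12 medial habenula markers none passed, 9 were negative and the median was -0.54. Tac2 was at 12.7 ± 6.81 CPM in resilient libraries (SD, n = 4) and 40.9 ± 35 CPM in the others (SD, n = 8), or -1.44 ± 0.42 on the log2 scale (SE; limma adjusted p = 0.593). In the authors' deposited test of the 3 groups its FDR was 0.00938. The log2 ratios there were -2.21 for resilient and -1.22 for susceptible over non-defeated. The nicotinic receptor subunits Chrna3 and Chrnb4 were at -1.83 and -1.81. The summed level of the list was 922 to 1433 CPM in resilient and 1076 to 1890 CPM in other libraries, none of these 3 genes was at 0 in any library, and their part in the differences above was not tested. Thalamus markers had a median of -0.30, astrocytes -0.05, oligodendrocytes -0.07, oligodendrocyte precursors -0.03, choroid plexus and ependyma 0.01 and blood 0.52, with no call in any. Blood markers varied widely between libraries, their summed level running from 264 to 5723 CPM in the others and from 1039 to 2272 CPM in resilient libraries. Hba-a1 and Hba-a2 had an FDR of 0.0160 and 0.00665 in the authors' deposited test of the 3 groups.

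The test in the authors' deposited table compares the 3 groups at once, and there 44 of the 17111 genes had an FDR under 0.05. It used the same libraries by which the members were chosen, so its overlap with them is a description. Of the 51 higher genes, 2 were among the 44 by the authors' deposited table, E2f8 (FDR 0.00033) and Dlx2 (FDR 0.00665). Both passed the filter on low values here only through the resilient libraries. The authors' deposited table also held 18 of the 56 lower genes, which were 14 mitochondrial genes, the copies Gm13340, Gm13341 and Gm28437, and Baalc (FDR 0.0296). Baalc was at 18.2 to 24.1 CPM in resilient libraries and 25.4 to 106 CPM in the others, or -1.14 ± 0.30 on the log2 scale (SE; limma adjusted p = 0.47).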

How the data were processed

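The 12 libraries were made per the labels' protocols with NucleoSpin RNA XS and SMART-Seq v4 kits. The submitters' processing notes name featureCounts, edgeR and the build GRCm38 (mm10). Not given in the sources used here: versions, the aligner, and whether strand was used. The deposited columns, named as read counts per the file headers, hold CPM plus a constant, which was subtracted. What was left was a whole number of reads in 100% of values, to within 0.001 read. The authors also deposited log2 ratios between groups, a likelihood ratio score, its p-value and FDR, and an interaction ratio per mouse. No sample label says outright that the libraries come from separate mice. The authors' interaction ratios are, however, listed by mouse ID, with a separate ID for each library. The p-values measure the spread between these samples.

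The table held 17416 genes after removal of 1 line without a gene, and 17402 matched GENCODE M21. Genes at or above the CPM equivalent of 10 reads in 4 libraries were kept, which removed 305. limma-trend (limma 3.58.1, R 4.3.3, robust) was fitted to log2(TMM-scaled CPM + 1) with 3 group means. The contrast was resilient minus the mean of the other 2 groups, over all genes, with Benjamini-Hochberg adjusted p under 0.05 called. The range rule used unscaled CPM. The mitochondrial share was tested by exact permutation over libraries. The procedure was tested on simulated data. The members, all 32 gene lists and the test of the mitochondrial share were chosen with earlier results of these data known. Named genes are those called, the 20 smallest p, the 10 widest gaps in each direction, up to 4 members of each list with the smallest p and list members outside the range. Further members of the 107 named in the text were chosen after their values were seen. The count-based tests planned as alternatives were not run, because a check of the columns as deposited, with the constant left in, found whole reads in 8 of the 12 columns only. Alternatives run were other scalings, filters, pseudocounts and models, the replicate block, the title letter, and each library left out.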

Additional observations from a re-analysis of the deposited data

Results flagged for a closer look

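Within groups of 4 libraries, a value was set apart where its gap to the nearest other value was too large a part of the group's range by Dixon's 95% critical value. Of 195 such groups of values, 11 met this (5.64%), and chance alone gives about 1 in 20. Resilient replicate 4 stood apart in its interaction ratio, 2.24 against 1.08 to 1.2 in the authors' deposited table, and in Rac1, at 238 CPM against 442 to 477 CPM. Non-defeated replicate 3 had 1906 genes without a read, against 973 to 1074 in its group, and mt-Cytb at 6553 CPM against 9988 to 10614 CPM. Gm13341, the mt-Co2 copy, was at 166 CPM in susceptible replicate 4 against 110 to 116 CPM.

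The remaining cases were scarce genes present in a single library of a group. Dlx2 was at 0.0510 CPM in non-defeated replicate 4, and Gm17308 at 0.0628 CPM in non-defeated replicate 3 and 0.0252 CPM in susceptible replicate 4. Sp9 was at 0.0255 CPM in susceptible replicate 3. Sox7 was at 1.48 CPM in non-defeated replicate 2 and at 2.10 CPM in susceptible replicate 1. All other libraries of these groups were at 0 for these genes, except for Sox7 at 0.353 CPM in susceptible replicate 4.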

How the results depend on the processing

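The count of 11 calls was 4 without the robust step, 0 with the title letter as a term (648 genes at an unadjusted p under 0.05), 0 in letter N libraries only (560 at that p), 1 against letter H controls (Ppp6r1, which is not among the 11) and 1 to 24 with 1 library left out. With the replicate block it was 4, of which 3 were among the 11. Replicate numbers pair nothing by the labels: same-number correlations ran from -0.19 to 0.13, with 3 of 12 over 0.1, and 3 libraries correlated best with their own number. Other scalings, filters, pseudocounts and a model of 2 groups gave 10 to 14 calls. When non-defeated 3 and 4 and resilient 4, the 3 that correlate least with the rest, were left out together, a choice made after seeing the data, there were 26 calls and 1029 genes outside the range, which then holds fewer libraries. The range count of 107 was 124 to 566 with 1 library left out. The mitochondrial share difference stayed negative in every alternative. This sign was fixed for any choice of libraries, because every resilient share (4.04% to 5.13%) lay below every other (6.73% to 12.6%). The shares did not overlap without the ribosomal RNAs either, so the sign is a description. The difference was -6.85 points in letter N libraries only, where the exact permutation p cannot go below 0.133. Of 62 named genes, 56 kept their sign in all 25 settings, all mitochondrial genes among them. The named genes were picked by their p, gap or range in these same data, so this count is a description too. With the letter as a term the log2 fold change turned to -0.18 for Klf9, -0.64 for Ppp2ca, -0.73 for Hcn2, -0.57 for Rac1, -0.22 for Olig2 and -0.27 for Jund. In letter N libraries only it was -0.15 for Klf9, -0.15 for Ppp2ca, -0.37 for Hcn2 and -0.12 for Rac1, and the cause was not tested. The count-based alternatives were not run. Depth limits the scarce genes most: for Dlx2, E2f8 and Sp9 a level of 1 CPM is 33 to 48 reads.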

Other observations

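Olig2, a factor of the oligodendrocyte lineage, was at 37.4, 38.4, 62.1 and 7.69 CPM in resilient libraries, 47.8 and 14.6 CPM in letter N susceptible libraries and 2.42 to 10.6 CPM in letter H. Jund, an AP-1 subunit, was at 238, 188, 144 and 72.8 CPM, 159 and 105 CPM, and 12.7 to 134 CPM in the same order. Heat shock and chaperone genes had a median log2 fold change of 0.16 with no call among 14. Hspa8, the constitutive chaperone of clathrin uncoating, was at 0.49 ± 0.12 (SE; limma adjusted p = 0.468), with 1823 to 2546 CPM in resilient libraries. Of 22 matrix and protease genes and 9 proprotein convertases, the theme of the series' title, none passed, with medians of 0.19 and -0.05.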
